A study of Mus musculus with 242 samples.

Results

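2,3-Benzofuran is a small aromatic compound in which a furan ring is fused to a benzene ring. The liver arrays described here are the 3 labelled with this chemical at 240 mg/kg by corn oil gavage, out of 242 arrays in the series, set against the 3 corn oil control arrays that carry the same run code. The series asked which liver transcripts, measured after 13 weeks of exposure, could foretell liver tumours in female mice. All mice of the groups used here were female B6C3F1 hybrids that began dosing at 5 weeks of age and were 18 weeks old at collection. Benzofuran and corn oil mice were gavaged 5 days a week with 5 ml/kg of oil. The same run held 3 mice on rodent chow and 3 mice each on 1,5-naphthalenediamine (2000 ppm), pentachloronitrobenzene (8187 ppm) and N-(1-naphthyl)ethylenediamine dihydrochloride (2000 ppm), all fed in the diet 7 days a week. The sample titles of the benzofuran arrays carry the number 2000, whereas their dose label reads 240 mg/kg, and the dose label was followed. Each array measured RNA from 3 lobes of a liver minced together, so every value is a mean over all cell types of the tissue, at a single dose and a single time.

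The liver clears foreign chemicals in steps. Cytochrome P450 enzymes oxidise them, epoxide hydrolases and carbonyl reductases act on the reactive products, glutathione transferases and glucuronosyltransferases attach polar groups, and transporters export the conjugates. Many of these genes are controlled by the transcription factor NRF2, which is held back by the protein KEAP1 until electrophiles modify KEAP1, and which then binds antioxidant response elements. Mouse liver also differs strongly between the sexes, since the pattern of growth hormone release keeps one set of P450 and sulfotransferase genes high in females and another high in males.

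Values are probe set signals on a linear intensity scale with a trimmed mean of 500 on each benzofuran and corn oil array. Albumin (Alb), which defines hepatocytes, was among the brightest genes and gave signals of 58973, 55560.0 and 58661 with benzofuran and 56600.0, 66521 and 64825 with corn oil. The median signal over probe sets was 87.1, 87.1 and 88.7 on the benzofuran arrays and 113, 123 and 121 on the corn oil arrays, although the trimmed means were equal. With 1 probe set per gene, the median log2 change over 18193 genes was -0.12, and falls among dim genes have to be read beside that shift. RNA integrity numbers were 8.3, 9.4 and 9.2 with benzofuran and 8.8, 7.4 and 8.8 with corn oil.

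Benzofuran changed 596 of 18193 genes, 3.28% of those tested, taking as changed a gene that moved at least 1.5-fold with an adjusted p under 0.05 in limma. Of these, 246 genes were higher (1.35% of those tested) and 350 were lower (1.92%). Counts of list members called, given below, are to be read beside these shares. The split depended on the scaling. With quantile normalisation 226 genes were higher and 215 lower, and with arrays centred on their medians 1461 were higher and 168 lower. Under all 3 scalings 189 rises and 93 falls were called, and 108 rises and 58 falls were also called when each of the 6 arrays was left out in turn. Changes of at least 4-fold numbered 23 upward and 36 downward. The corn oil mean lay above the median gene signal of the run (179) for 214 of the 246 rises and 242 of the 350 falls. The benzofuran arrays lay above all 6 control arrays of the run, chow included, for 233 of the rises and below all 6 for 299 of the falls. For all 596 called genes the benzofuran arrays were already apart from the corn oil arrays, so only the chow arrays add to these counts. How many of all 18193 genes lay so was not counted.

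**Figure D1:**
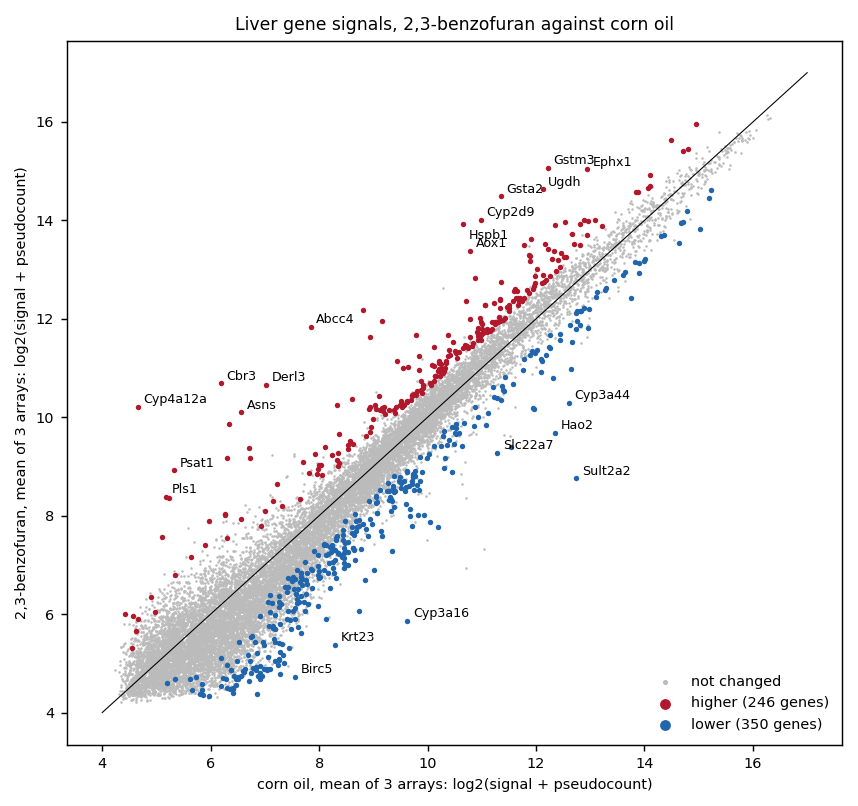
Mean log2(signal + pseudocount) of each of 18193 genes over 3 corn oil arrays (horizontal) and 3 benzofuran arrays (vertical), with the 246 genes that rose in red, the 350 that fell in blue and the line of equality in black. The labelled rises Ugdh, Ephx1, Gsta2 and Gstm3 lie among the brightest genes, while Birc5, among the falls, lies near the floor of the benzofuran arrays.

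The NRF2 target list gave the fullest response. Of its 26 measured members 18 rose and none fell, with a median log2 change of 1.23 beside -0.12 over all genes. The list was chosen with earlier results of these data known, so its count describes these arrays and gives no independent support. With quantile normalisation 17 members rose. The brightest of the risen members catalyse the steps after oxidation. Ephx1, the microsomal epoxide hydrolase that opens epoxides with water, gave 31006, 35301 and 34651 with benzofuran and 7469, 6819 and 9625 with corn oil, a rise of 4.25-fold (log2 change 2.09 ± 0.17, SE of the limma coefficient as throughout, adjusted p = 1.55e-05). Ugdh makes UDP-glucuronic acid, the sugar donor of glucuronidation. Its signals were 26400.0, 25947 and 23695 against 4869.7, 4195 and 4279, a rise of 5.69-fold (adjusted p = 2.49e-05). Both genes gave tight groups that stood far apart. Aox1, an aldehyde oxidase, gave 10359, 11548 and 10071 against 1974, 1574 and 1728, 6.03-fold higher (adjusted p = 1.56e-07). Nqo1, a quinone reductase and a standard NRF2 gene, gave 1329.7, 1276 and 1305 against 284, 474 and 375, 3.41-fold higher (adjusted p = 0.00606). The NRF2 gene itself, Nfe2l2, gave 2308, 2632 and 2323 against 2697, 2755 and 2679 and did not pass the test (adjusted p = 0.461).

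Antioxidant response elements were looked for in promoter windows from RefSeq (GRCm38.p6), which run from 250 bases before to 50 after the annotated start. The core searched was TGACNNNGC on both strands, whose first letters it shares with the AP-1 site, and 12.4% of all 32841 windows held it, or 14% of 27018 genes. Of the 26 members 21 had a window and 6 of these held the core, among them 4 of the 15 risen members with a window (Abcc4, Srxn1, Txnrd1 and Ugdh). For the stress gene list described further on, the ATF4 element TGATGNAA, which overlaps C/EBP sites, was searched the same way. It lay in 3.97% of all windows, or 4.51% of genes, and in 5 of the 24 list members with a window. Of these 5, Asns rose, Chac1 and Herpud1 fell, and Atf3 and Trib3 were not called. A match is a description of the letters and not evidence of binding. The windows below are shown because these genes rose and their windows hold the letters in question, in capitals, on either strand. They lie at chr5:65435793-65436092 (minus strand) for Ugdh, chr14:118706170-118706469 (minus strand) for Abcc4, chr2:152105274-152105573 (plus strand) for Srxn1 and chr6:7693160-7693459 (minus strand) for Asns, and each is printed 5′ to 3′ in the direction of transcription.
Ugdh: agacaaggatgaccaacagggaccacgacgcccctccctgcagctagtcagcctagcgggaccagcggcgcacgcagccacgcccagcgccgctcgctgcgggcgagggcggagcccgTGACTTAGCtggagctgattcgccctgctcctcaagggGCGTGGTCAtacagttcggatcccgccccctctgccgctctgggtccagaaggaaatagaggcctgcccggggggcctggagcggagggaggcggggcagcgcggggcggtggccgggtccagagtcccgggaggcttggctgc
Abcc4: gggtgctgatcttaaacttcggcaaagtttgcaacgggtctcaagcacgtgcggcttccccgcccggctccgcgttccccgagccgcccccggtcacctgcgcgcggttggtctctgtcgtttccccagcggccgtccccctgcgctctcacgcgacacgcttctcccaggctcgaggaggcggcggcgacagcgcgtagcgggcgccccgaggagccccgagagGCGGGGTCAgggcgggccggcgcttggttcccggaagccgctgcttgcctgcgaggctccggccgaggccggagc
Srxn1: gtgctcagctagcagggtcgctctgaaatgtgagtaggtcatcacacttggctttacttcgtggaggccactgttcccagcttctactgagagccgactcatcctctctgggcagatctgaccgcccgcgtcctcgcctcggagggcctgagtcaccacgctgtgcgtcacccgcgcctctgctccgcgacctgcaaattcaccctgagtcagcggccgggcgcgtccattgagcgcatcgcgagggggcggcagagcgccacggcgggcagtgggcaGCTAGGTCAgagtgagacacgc
Asns: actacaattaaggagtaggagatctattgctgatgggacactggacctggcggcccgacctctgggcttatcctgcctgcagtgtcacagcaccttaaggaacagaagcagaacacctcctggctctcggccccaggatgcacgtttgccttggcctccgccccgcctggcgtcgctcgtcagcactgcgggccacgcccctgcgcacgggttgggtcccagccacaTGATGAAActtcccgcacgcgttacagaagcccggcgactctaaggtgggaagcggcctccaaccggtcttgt

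Glutathione transferases attach glutathione to electrophiles. Of 20 measured members 8 rose and none fell, and the risen ones were mostly of the alpha, mu and pi classes. Gsta2 gave 23403, 22578 and 22847 with benzofuran and 2039.6, 1658 and 5235 with corn oil, a rise of 8.74-fold (adjusted p = 0.00115). Gstm3 gave 29492, 35244 and 39098 against 3702, 6271 and 4658, a rise of 7.19-fold (adjusted p = 0.000123). For both genes the lowest benzofuran array lay several times above the highest corn oil array. Gstm4 (1.96 ± 0.18), Gstm2 (1.43 ± 0.18), Gsta4 (1.19 ± 0.22), Gstp1 (1.14 ± 0.11) and Gstm1 (1.00 ± 0.11) also rose on the log2 scale. The membrane-bound Mgst2 rose too, with the widest SE of these genes (1.75 ± 0.45). Gsta3, another alpha-class member, gave a log2 change of 0.05 ± 0.10 and did not pass (adjusted p = 0.824). The mu-class genes, and Gsta2 with its close relatives, are near-identical copies, and their probe sets may bind each other's transcripts, so the split among them is uncertain.

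The genes that supply glutathione and reducing power rose in part. Of 19 genes for glutathione and thioredoxin supply 5 rose and 1 fell. Gsr, which reduces oxidised glutathione, gave 2981, 2949.8 and 2916 against 1359, 1345 and 1472, a rise of 2.11-fold (adjusted p = 0.000392). Srxn1, which repairs overoxidised peroxiredoxins, rose 2.71-fold, Gpx4 1.9-fold and Gss, the second enzyme of glutathione synthesis, 1.82-fold. The subunits of the first enzyme did not pass the test, with log2 changes of 0.71 ± 0.21 for Gclc (adjusted p = 0.0699) and 0.32 ± 0.20 for Gclm (adjusted p = 0.382). Chac1, which degrades glutathione, fell 2.97-fold (adjusted p = 0.027), a call that was lost when corn oil replicate 1, 2 or 3 or benzofuran replicate 2 or 3 was left out (adjusted p up to 0.105 without 2,3-benzofuran replicate 2). In the pentose phosphate and NADPH list 3 of 9 rose, Pgd 2.35-fold, Tkt 2.17-fold and Me1 1.77-fold. The Me1 call was lost with quantile normalisation and when any of the 6 arrays was left out.

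Among 23 aldehyde, epoxide and carbonyl enzymes 7 rose and none fell. Cbr3, a carbonyl reductase, was the second largest rise of all. It gave 1564, 1639 and 1697 with benzofuran, 118, 68.4 and 16.4 with corn oil and 63.1, 79.7 and 48.3 with chow, a rise of 22.5-fold over corn oil (adjusted p = 0.000712). Its corn oil arrays differed several-fold among themselves, yet all lay far below the benzofuran arrays. Over the other 56 control arrays of the series, the chow arrays of this run included, Cbr3 ranged from 13.6 to 299, a level set across runs. The related Cbr1 gave 11633, 12503 and 10619 against 3591, 3327 and 3527, 3.31-fold higher (adjusted p = 1.81e-05). Akr1c19, an aldo-keto reductase, rose 3.3-fold (adjusted p = 0.00118), and the retinal dehydrogenase Aldh1a1 rose 1.56-fold (adjusted p = 0.0135). The Aldh1a1 call was lost without corn oil replicate 2 (adjusted p = 0.062) or without benzofuran replicate 3.

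Of 13 measured glucuronidation genes 5 rose and none fell, with a median log2 change of 0.52. They were Ugdh, the transporter Slc35d1, which carries UDP-sugars into the endoplasmic reticulum (2.32-fold), and the transferases Ugt2b35 (2.71-fold), Ugt2b5 (1.63-fold) and Ugt2b1 (1.61-fold). A second probe set of Slc35d1 gave a log2 change of -0.19. Sulfotransferases, the other main conjugating family, held 12 measured members, of which none rose and 3 fell. The Sult1d1 call was lost under median centring and without any array other than benzofuran replicate 1, and Sult2a2 is described with the female-biased genes. Sult1c2 gave 265, 190.3 and 260.1 against 737, 840.4 and 815, 3.21-fold lower (adjusted p = 0.00679).

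Transporters changed in part. Of 18 efflux transporters 3 rose and 1 fell, 22.2% called beside 3.28% of all genes. The fall was Abcc6, a call lost under median centring and without benzofuran replicate 2 or 3 or corn oil replicate 2 or 3. Abcc4, a basolateral pump for conjugates and bile acids, gave 3161, 4258 and 3596 with benzofuran, 217, 283 and 156 with corn oil and 131, 147 and 97.5 with chow, 15.9-fold higher than corn oil (adjusted p = 6.66e-06). Abcg2 gave 3114, 3267 and 3337 against 1395, 1169 and 1368, 2.46-fold higher (adjusted p = 4.5e-05), and Abcc3 rose 1.68-fold (adjusted p = 0.00579). Of 15 uptake transporters none rose and 3 fell (20% called), while with median centring 2 rose and 3 fell. The calls for Slc38a2 and Slc10a2 were lost when any of the 6 arrays was left out. Slc22a7, an organic anion carrier, gave 804, 542 and 509 against 2963, 3040.2 and 1701, 4.02-fold lower (adjusted p = 0.00182). Slco1a1, a carrier high in male liver, gave 89.0, 105 and 123 against 2501, 1073 and 1660.3, and its log2 change of -3.77 ± 1.02 did not pass (adjusted p = 0.0535).

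**Figure D2:**
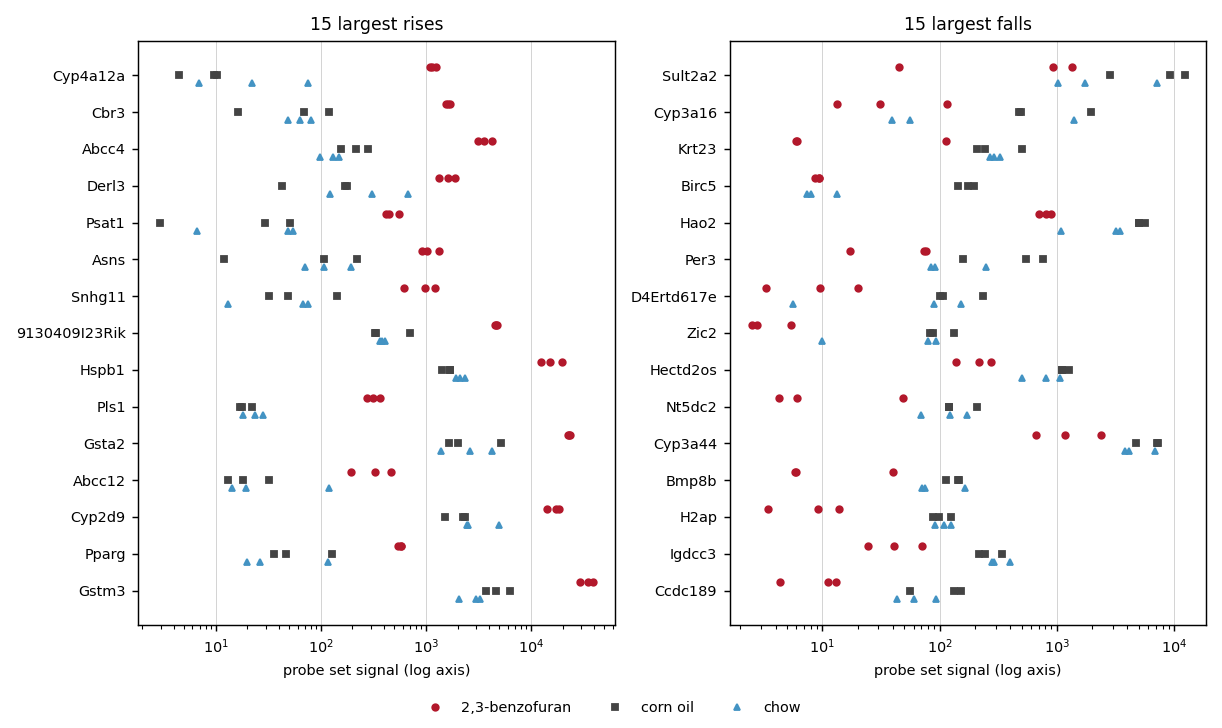
Signal of every benzofuran, corn oil and chow array (log axis) for the called genes that rose most (15) and fell most (15). The rises stand clear of both control groups, whereas Birc5 lies as low with chow as with benzofuran.

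Few targets of the other xenobiotic receptors passed the test. Of 20 CAR and PXR targets none rose and 1 fell (Cyp3a44), 5% called beside 3.28% of all genes. Cyp2b10, the standard CAR target, gave 3576, 3522 and 4396 against 2959, 3286 and 3091 (log2 change 0.29 ± 0.39, adjusted p = 0.728), and Cyp3a11, the standard PXR target, gave 46298, 47342 and 49108 against 45883, 49582 and 51442 (adjusted p = 0.864, its small change turning sign with the scaling). Cyp1a1, the standard target of the aryl hydrocarbon receptor, gave 38.8, 56.4 and 71.3 against 159, 146 and 103 (log2 change -1.08 ± 0.57, adjusted p = 0.306). Of 7 targets of that receptor only Nqo1 rose (14.3% called). Nqo1 is also a known NRF2 target, and which regulator acted here was not tested. Of 25 PPARalpha targets none rose and 2 fell (8% called), Acaa1a 1.79-fold and Acot1 2.33-fold. Both calls were lost under median centring and in most fits that left out an array. Cyp4a14 gave 7288, 3482 and 6334 against 12209, 9188 and 10106 and did not pass (adjusted p = 0.139). Cyp2e1, a P450 of small solvents, gave 52840.0, 50555 and 49736 against 53019, 58490.0 and 58847 (adjusted p = 0.388).

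Genes that differ between the sexes moved in both directions. Of 20 measured male-biased genes 5 rose and none fell, and of 16 female-biased genes 5 fell and none rose. Over all genes 1.35% rose and 1.92% fell. A log2 change above 0 was seen for 11 of the 20 male-biased genes and 2 of the 16 female-biased genes. The male-biased list median, relative to corn oil, was -0.13, 0.35 and -0.05 on the benzofuran arrays. With median centring 5 male-biased genes rose and 1 fell. Cyp4a12a, a fatty acid hydroxylase high in male liver, was the largest rise of all genes. Its signals were 1099, 1142 and 1258 with benzofuran, 9.68, 4.46 and 10.3 with corn oil and 6.86, 76.3 and 22.0 with chow, 46.6-fold higher than corn oil on the scale with the pseudocount (log2 change 5.54 ± 0.53, adjusted p = 5.76e-05). Its controls lay near the floor of the arrays, while the benzofuran arrays were among the brighter genes. Cyp2d9, also male-biased, gave 17210.0, 14268 and 18500.0 against 2248, 1514 and 2366, 8.2-fold higher (adjusted p = 1.74e-05). Elovl3, a fatty acid elongase, gave 1073, 1248 and 1294 against 388, 283 and 258 with chow arrays at 634, 1034 and 510.3, 3.78-fold higher than corn oil (adjusted p = 0.00392). The other risen members were Gstp1, which is also an NRF2 target, and Cyp7b1 (1.65-fold, adjusted p = 0.0384), whose call was lost when any of the 6 arrays was left out. Hsd3b5 gave the opposite sign, 8.36, 34.8 and 4.98 against 227, 91.8 and 172 (adjusted p = 0.0672), and the male-biased urinary protein Mup3 gave 42900.0, 44952 and 42101 against 35303, 44599 and 53813. Slco1a1, given with the transporters, was also lower without passing the test.

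The 16 measured female-biased genes summed to 96469 to 111910 with benzofuran and 125140 to 142760 with corn oil. With chow the sums were 80047 to 138780, a range that holds the benzofuran sums. Among these genes Hao2, a peroxisomal hydroxyacid oxidase, gave 814, 707 and 898 with benzofuran, 4994, 5066 and 5632 with corn oil and 3444, 1089 and 3169 with chow, 6.39-fold lower than corn oil (adjusted p = 0.00369). Cyp3a44 gave 2387, 1176 and 670.2 against 7118, 7236 and 4693, 4.98-fold lower (adjusted p = 0.0039). Slc22a26 gave 2072, 1715 and 1534 against 4869, 5981 and 4480.0, 2.86-fold lower (adjusted p = 0.00118). The calls for Hao2, Cyp3a44 and Slc22a26 held when each array was left out. The largest falls were less even. Sult2a2, a hydroxysteroid sulfotransferase, gave 1349, 45.3 and 932 against 2816, 12326 and 9238, 15.9-fold lower (adjusted p = 0.0448), but its chow arrays at 7107, 1020.2 and 1745 overlapped the benzofuran arrays. Its call was lost without benzofuran replicate 2 or 3 or corn oil replicate 2 or 3 (adjusted p up to 0.144 without corn oil replicate 2). Cyp3a16 gave 116, 31.2 and 13.3 against 474, 1969 and 492, 13.6-fold lower (adjusted p = 0.0478), with chow at 1387, 55.9 and 39.5. That call was lost when any of the 6 arrays was left out (adjusted p up to 0.164 without corn oil replicate 2) and with quantile normalisation. Cyp4a12a, Cyp3a44, Cyp3a16 and Sult2a2 each belong to families of near-identical copies, so the member that changed is uncertain.

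Stress genes changed in both directions. Of 25 genes of the endoplasmic reticulum and amino acid stress responses 4 rose and 2 fell, 24% called beside 3.28% of all genes. Psat1, an enzyme of serine synthesis, gave 554, 415 and 441 against 29.2, 50.6 and 2.95, 12.1-fold higher (adjusted p = 0.00579), and its second probe set gave a log2 change of 4.12. Asns, which makes asparagine and whose window is printed above, gave 1326, 1030.0 and 925 against 219, 106 and 11.9, 11.6-fold higher (adjusted p = 0.0193). The corn oil arrays of Asns spread widely, and its call was lost when any array but corn oil replicate 1 was left out (adjusted p up to 0.0697 without corn oil replicate 3). Atf5 (1.99-fold) and the chaperone partner Sdf2l1 (1.95-fold) also rose, calls lost without corn oil replicate 2 or 3 or benzofuran replicate 2 and, for Atf5, benzofuran replicate 1. Herpud1, which serves the degradation of misfolded proteins, gave 4855, 4445 and 7569 against 15149, 16133 and 10682, 2.51-fold lower (adjusted p = 0.00897), and Chac1 fell as above. Atf4 gave 2631, 3272 and 2452 against 2961, 2728 and 2815, and the chaperone Hspa5 gave 18315, 26260.0 and 18995 against 26032, 24127 and 24360.0; neither passed. Derl3, another degradation factor, was outside the list and gave 1617, 1902 and 1319 against 169.9, 42.5 and 179 with chow at 305, 680.0 and 123, 12.4-fold higher than corn oil (adjusted p = 0.0116, and 0.0563 without corn oil replicate 2).

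Of 13 heat shock genes 1 rose (7.69% called), Hspb1, a small heat shock protein that keeps unfolded proteins soluble. It gave 15124, 19677 and 12436 with benzofuran, 1698, 1686 and 1409 with corn oil and 1920.3, 2089 and 2337 with chow, 9.62-fold higher than corn oil (log2 change 3.27 ± 0.21, adjusted p = 2.66e-06). Every benzofuran array also lay above the range of the other 56 control arrays of the series, 1920.3 to 8493, and the mean was the highest of 46 treated groups in the series, a level set across runs. Of 31 proteasome genes 1 rose, Psmd14 (1.99-fold, adjusted p = 0.000464), a share of 3.23% called that is near the 3.28% of all genes. All 31 had a log2 change above 0 in the main scaling, as did 7211 of 18193 genes, and their median was 0.28. That median was 0.18 with quantile normalisation, where 1 member rose. With arrays centred on their medians it was 0.57 and 13 members rose, beside 1461 of 18193 genes.

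Fat storage and synthesis genes split. Of 29 genes 3 rose and 1 fell. Pparg, the regulator of fat storage, gave 573, 573 and 539 against 46.2, 36.1 and 129, 7.31-fold higher (adjusted p = 0.00747). Cd36, a fatty acid carrier and PPARgamma target, gave 4824, 4633 and 6587 against 1532, 1568 and 1909.5 with chow at 1217, 669 and 699, 3.16-fold higher than corn oil (adjusted p = 0.00364). Me1 rose as given above and Fads2, a desaturase, fell 1.62-fold (adjusted p = 0.0303), a call lost when any of the 6 arrays was left out. Fasn, the fatty acid synthase, gave 5465, 7679 and 9142 against 10656, 8164 and 11470.0 and did not pass (adjusted p = 0.296). The serum apolipoprotein Apoa4 rose 2.03-fold (adjusted p = 0.0278), a call lost without corn oil replicate 2 or 3 or benzofuran replicate 1 or 2 (adjusted p up to 0.104 without 2,3-benzofuran replicate 2). Tfrc, the transferrin receptor that brings iron into cells, gave 2118, 2388 and 6059.6 against 512, 449 and 468, 6.38-fold higher (adjusted p = 0.00026), with benzofuran replicate 3 well above the other two. Its other probe sets gave log2 changes of 0.45 to 1.51.

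**Figure D3:**
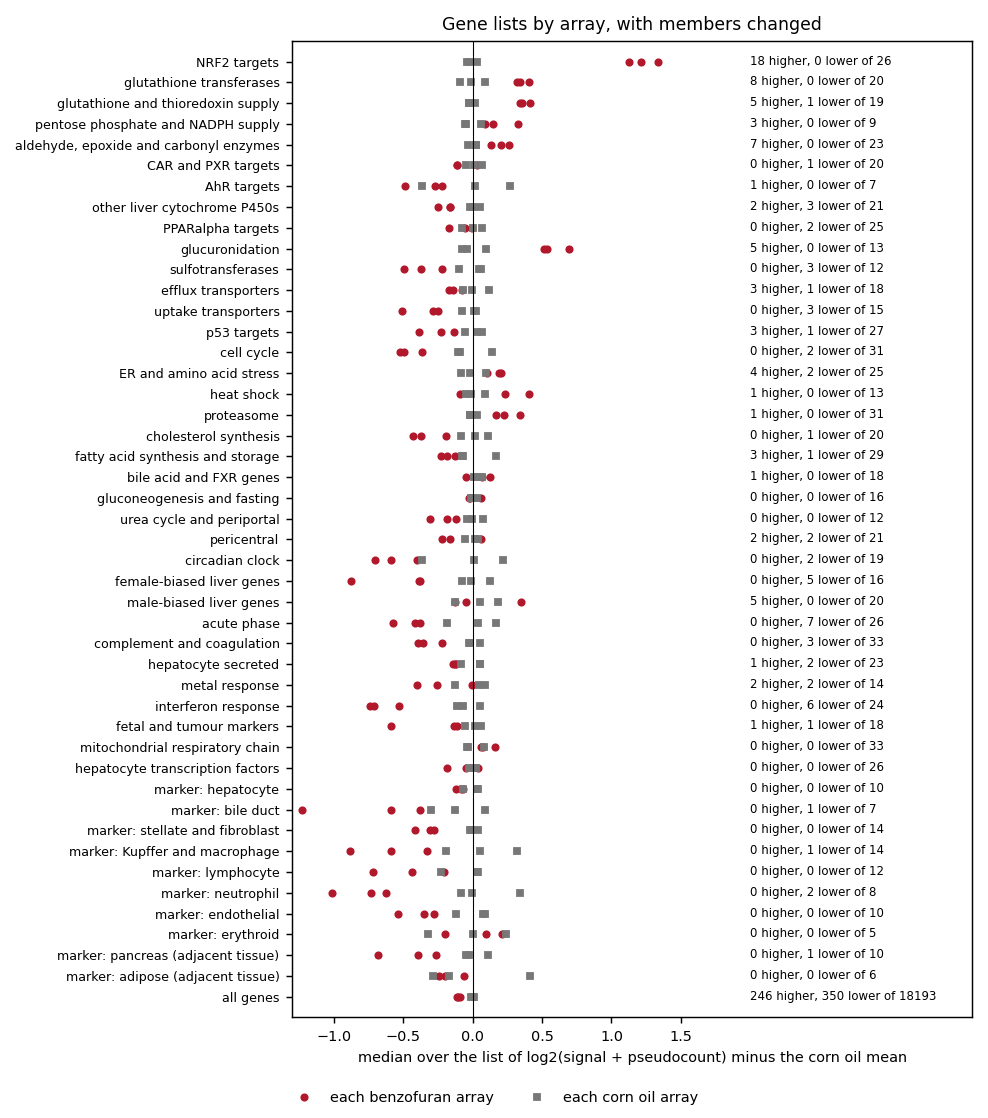
Median over each gene list of log2(signal + pseudocount) minus the corn oil mean, 1 point per array, with the numbers of members called in each direction at the right. The benzofuran arrays stand above 1 for NRF2 targets and below the corn oil arrays for interferon and acute phase genes, beside -0.12 over all genes.

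Of 26 acute phase genes 7 fell and none rose, with a median log2 change of -0.48. Lbp, which binds bacterial lipopolysaccharide, gave 3672, 3349 and 3568 against 7375, 7912 and 5482, 1.93-fold lower (adjusted p = 0.0039). Saa3, a serum amyloid, gave 176, 201 and 149 against 394, 495 and 504, 2.5-fold lower (adjusted p = 0.0079). Haptoglobin (Hp) gave 26517, 26071 and 22699 against 40218, 41185 and 34390.0, 1.54-fold lower (adjusted p = 0.0092), a call lost under median centring and without corn oil replicate 2 or benzofuran replicate 3. The signalling inhibitor Socs3, named after its values were seen, gave 207, 184 and 226 against 935, 1137 and 529 (log2 change -1.93 ± 0.48, adjusted p = 0.0385). Of 33 complement and coagulation genes 3 fell, F7, F11 and Hc, with F7 at 3465, 2832 and 2844 against 5695, 5119 and 5866 (adjusted p = 0.00155). The F11 call was lost without any array other than benzofuran replicate 2, and the Hc call without any other than benzofuran replicate 1. With arrays centred on their medians the acute phase list had 3 falls and 1 rise, and the complement list had none of either.

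Of 24 interferon response genes 6 fell and none rose, with a median log2 change of -0.75. Ifit3, an antiviral protein, gave 376, 318 and 339 against 766, 679.9 and 801, 2.12-fold lower (adjusted p = 0.000442). Cxcl9, a chemokine that draws T cells, gave 335, 269 and 472 against 829.5, 903 and 982, 2.51-fold lower (adjusted p = 0.00349). The immunoproteasome subunit Psmb8 fell 1.75-fold (adjusted p = 0.0111, and 0.0508 without corn oil replicate 2). Its call was also lost under median centring and with the RNA integrity number as a covariate. A second Psmb8 probe set gave a log2 change of 0.03. With quantile normalisation 4 members of the list fell, and with median centring 3. Summed signals of marker genes for several cell types, hepatocytes included, lay lower on the same arrays, though few single markers passed the test. The 10 hepatocyte markers summed to 338730 to 352950 with benzofuran, 364670 to 396330 with corn oil and 394930 to 420850 with chow. Lymphocyte and adipose marker sums also lay below those of corn oil, while erythroid sums overlapped. No marker of these lists was called. The 14 Kupffer cell and macrophage markers summed to 11782 to 15013 with benzofuran, 16966 to 22149 with corn oil and 16375 to 20340 with chow, and 1 of 14 was called. A log2 change above 0 was seen for 2 of these 14, beside 7211 of 18193 genes. The called marker was Csf1r, the receptor that macrophages depend on (4885, 4576 and 4219.5 against 7102, 7905 and 6567, 1.57-fold lower, adjusted p = 0.0235, a call lost under median centring and without corn oil replicate 1 or 2 or benzofuran replicate 2 or 3). The defining Kupffer marker Clec4f gave 1499, 2335 and 1938 against 3160.4, 3057 and 2662 (adjusted p = 0.0559), and no marker of the list was at 0. The 14 stellate cell and fibroblast markers summed to 10961 to 13672 against 15092 to 18285 with corn oil, and the 10 endothelial markers to 8179 to 9764 against 11033 to 13059, with none called in either list. The 8 neutrophil markers summed to 409 to 537 against 753 to 1117, with 2 called (25%). The 7 bile duct markers summed to 379 to 475 against 899 to 1203, with 1 called (14.3%), beside 3.28% of all genes. In corn oil, 1 of the 8 and 3 of the 7 lay above the median gene signal of the run. With quantile normalisation no member of either list was called. Of the neutrophil calls, Mpo was lost when any of the 6 arrays was left out, and Cxcr2 in 4 of the 6 fits. The part of these cells in the interferon and acute phase falls was not tested. In whole liver RNA, fewer cells of a type and less RNA per cell cannot be told apart.

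The cell cycle list held 31 measured genes, of which none rose and 2 fell, with a median log2 change of -0.44 (-0.23 with quantile normalisation). The share called was 6.45%, beside 3.28% of all genes. Ccnd1, cyclin D1, gave 1066, 1036 and 649.8 against 1663, 3063 and 1936, 2.37-fold lower (adjusted p = 0.0208). The call was lost without benzofuran replicate 3 or without corn oil replicate 2 or 3 (adjusted p up to 0.0887 without corn oil replicate 2). Birc5, survivin, gave 8.65, 9.41 and 9.38 against 175, 144 and 197, 7.11-fold lower (adjusted p = 0.00443). Its chow arrays gave 7.41, 7.97 and 13.3, as low as the benzofuran arrays, and the call was lost when both control groups were pooled. Mki67, a marker of dividing cells, gave 97.1, 54.0 and 110.2 against 306, 212 and 159 and did not pass (adjusted p = 0.136).

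Other large changes lay outside these groups. 9130409I23Rik, a gene known by a clone name, gave 4515, 4695 and 4738 against 333, 329 and 713, 10.5-fold higher (adjusted p = 5.62e-06). Pls1, plastin 1, an actin-bundling protein, gave 275, 362 and 317 against 17.9, 22.2 and 16.8, 9.2-fold higher (adjusted p = 4.73e-08). Snhg11, a small nucleolar RNA host gene, rose 11.5-fold. All 3 calls held when each array was left out. Downward, Hectd2os, an antisense transcript, gave 138, 218 and 272 against 1275, 1099.5 and 1105, 5.35-fold lower (adjusted p = 0.000425). Krt23, a keratin of bile ducts, gave 6.07, 6.00 and 114 against 207, 246 and 502, 7.54-fold lower (adjusted p = 0.0361), a call lost with quantile normalisation and without any array other than benzofuran replicate 3 (adjusted p up to 0.128 without 2,3-benzofuran replicate 2). Cela1, an elastase and a marker of pancreas in the lists used here, gave 927, 1205 and 1305 against 4376, 3959.7 and 3560.5, 3.45-fold lower (adjusted p = 0.00457). The 10 pancreas markers summed to 1436 to 1669 with benzofuran and 4144 to 5068 with corn oil, of which Cela1 was the called member. Cela1 gave most of each sum, and 1 of the 10 lay above the median gene signal of the run in corn oil. The list median was -0.36, and -0.07 with quantile normalisation. Zic2 (2.50, 5.38 and 2.79 against 87.6, 82.6 and 132), Bmp8b, Nt5dc2, D4Ertd617e, Ccdc189, H2ap and Igdcc3 fell to the dim end of the benzofuran arrays. Of these, the D4Ertd617e call was lost when any of the 6 arrays was left out, and 1 chow array (5.66) lay within its benzofuran values. The H2ap call was lost without any array other than benzofuran replicate 3. The Ccdc189 call was lost without benzofuran replicate 1 or 2 or corn oil replicate 2 or 3, and the Bmp8b call without benzofuran replicate 2 or 3 or corn oil replicate 2. Probe sets disagreed for 103 of the 327 called genes with more than 1 probe set. Examples are Tubb4b, where 2 of 6 probe sets had a log2 change above 0 and 1 was called, and Uggt1, where the other probe sets gave log2 changes of -1.69 and -0.30. For H2ap, named above, the other probe set gave 0.17, and for Igdcc3 the others gave -0.46 and 0.69.

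The corn oil controls were compared with the chow controls of the run to see how far vehicle groups differed. No gene passed the limma test (0% of those tested), and 1214 genes had an unadjusted p under 0.05, while other settings called 0 to 3 genes. The comparisons with the other chemicals each use a chemical's own controls, so that vehicle, route, dose and chemical differ together and cannot be told apart. The change with benzofuran differed from that with 1,5-naphthalenediamine for 6 genes (0.033%), from that with pentachloronitrobenzene for 83 (0.456%) and from that with N-(1-naphthyl)ethylenediamine dihydrochloride for 126 (0.693%). 1,5-Naphthalenediamine called 619 genes against chow, and 173 genes were called the same way with both chemicals, 29% of the benzofuran calls and 27.9% of the naphthalenediamine calls. These were 86 rises and 87 falls, and 2 genes were called in opposite directions. Pentachloronitrobenzene shared 23 calls of the same direction (28.4% of its 81) and N-(1-naphthyl)ethylenediamine dihydrochloride 24 (19% of its 126).

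For several genes the change with 1,5-naphthalenediamine was close to that with benzofuran, and the difference did not pass the test. The log2 change of Ugdh was 2.51 ± 0.22 with benzofuran and 2.40 ± 0.22 with 1,5-naphthalenediamine, beside 0.76 ± 0.22 and 0.10 ± 0.22 with the other 2 chemicals. For Gsta2 it was 3.13 ± 0.42 and 3.21 ± 0.42, and for Nqo1 1.77 ± 0.30 and 1.45 ± 0.30. Pparg gave 2.87 ± 0.51 and 2.81 ± 0.51. Other genes did not follow. Hspb1 gave 3.27 ± 0.21 with benzofuran and 0.23 ± 0.21 with 1,5-naphthalenediamine, a difference of 3.04 ± 0.30 on the log2 scale (adjusted p = 0.00116). It differed from the other 2 chemicals too. Csad, an enzyme of taurine synthesis, gave 4534, 5758 and 2387 with benzofuran and 777, 432 and 499 with corn oil, a log2 change of 2.81 ± 0.38, against -1.08 ± 0.38 with 1,5-naphthalenediamine (adjusted p of the difference = 0.0249). Nucb2, the precursor of nesfatin, gave 783, 652 and 537 against 125, 83.4 and 60.8, a log2 change of 2.68 ± 0.37, against -1.02 ± 0.37 (adjusted p of the difference = 0.0249). The calls for Csad and Nucb2 each failed in 10 of 22 other settings, and that for Hspb1 in none of 22. Cyp4a12a gave 5.54 ± 0.53 with benzofuran, 1.05 ± 0.53 with 1,5-naphthalenediamine, -0.46 ± 0.53 with pentachloronitrobenzene and 0.69 ± 0.53 with N-(1-naphthyl)ethylenediamine dihydrochloride, and it differed from the last 2 (adjusted p = 0.00224 and 0.00812).

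**Figure D4:**
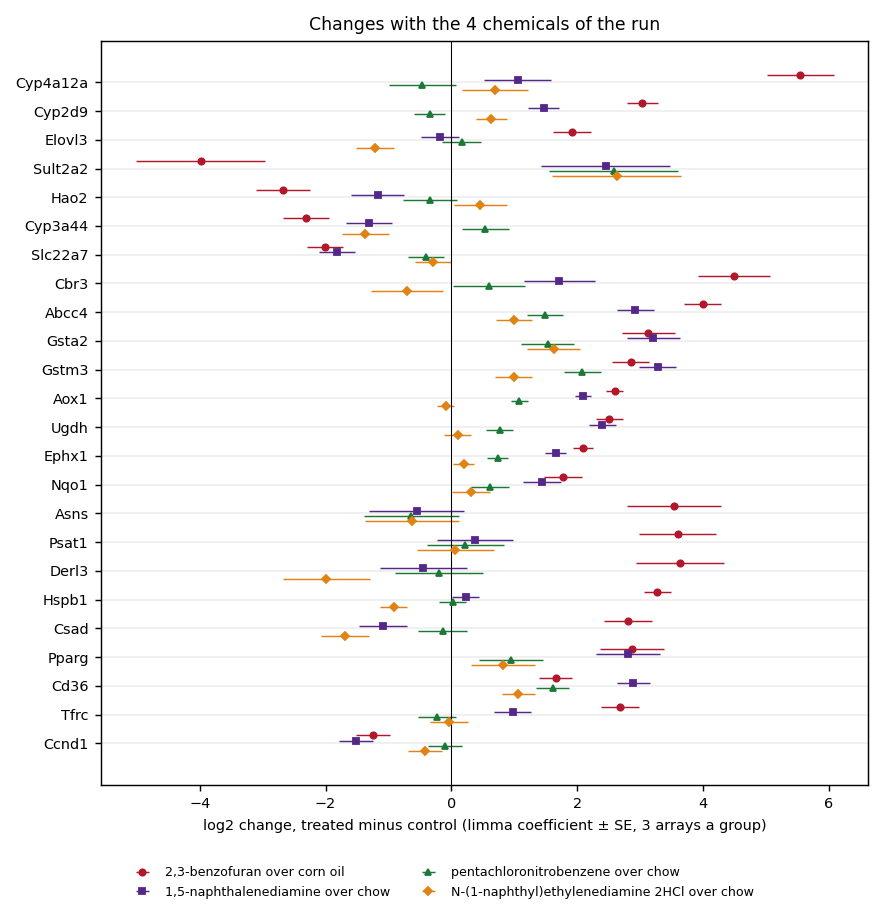
Log2 change with SE (limma, 3 arrays a group) of 24 genes with benzofuran over corn oil and with the 3 dosed-feed chemicals over chow. Ugdh, Gsta2 and Pparg lie together for benzofuran and 1,5-naphthalenediamine, and Hspb1 and Csad stand apart for benzofuran. Psat1 and Asns also lie higher for benzofuran, but their differences from the other chemicals did not pass the limma test (lowest adjusted p = 0.0808 and 0.0934).

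**Figure D5:**
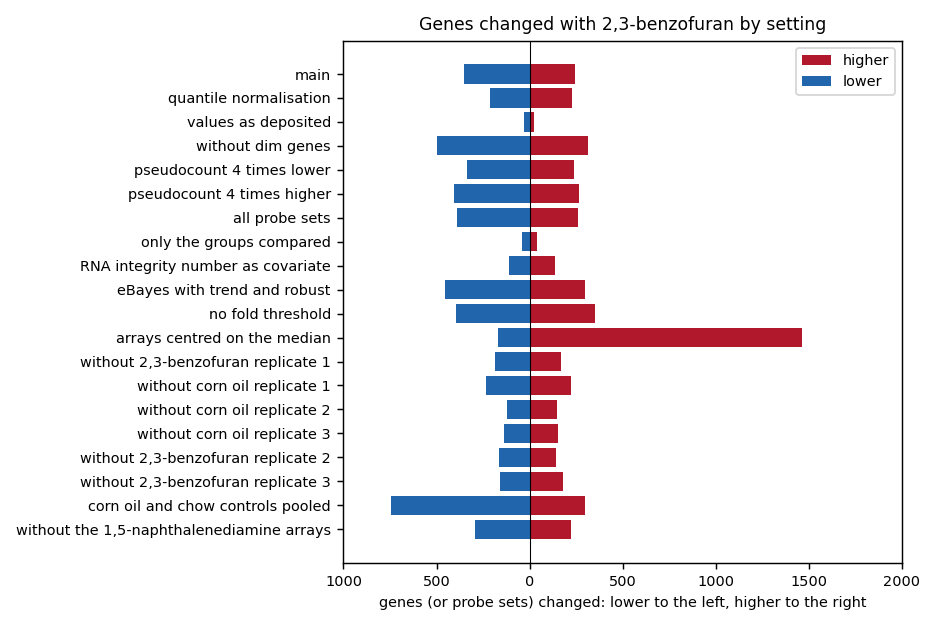
Genes called higher (right) and lower (left) with benzofuran under the main setting and 19 others. The number of rises stays between 137 and 352 except with values as deposited (23), with the 2 groups alone (39) and with arrays centred on the median (1461).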

How the data were processed

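Liver RNA was measured on Affymetrix Mouse430_2 arrays, 1 colour. The deposited values are probe set signals on a linear intensity scale, made by the authors with GCOS 1.0, per the submitters' processing notes. Their trimmed mean (2% off each end) was 500 on all but 2 of 242 arrays. 1 of these, 1,5-naphthalenediamine replicate 2 (84.53), is in the run used and was multiplied to 500. From the deposited signals log2(signal + 17.3) was computed here, the pseudocount being the 20th percentile of the signals of an array, taken as the median of the arrays, so folds of dim genes are understated. Of 45101 probe sets 64 were controls, 34945 had 1 gene symbol in the platform annotation, 932 several and 9160 none. Each of 18193 genes was read from its brightest probe set, by the mean of the 242 arrays. No column lacked a sample.

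limma 3.58.1 (R 4.3.3) was fitted to the 18 arrays of the run, 6 groups of 3, with eBayes and Benjamini-Hochberg adjustment over all genes, two-sided. Called genes had an adjusted p under 0.05 and a fold of at least 1.5. The titles give each array a number of its own, read here as separate mice, and the number of arrays limits the precision. Replicate numbers follow the order of the samples and pair nothing. Gene lists and members were chosen with earlier results of these data known. Named were the 15 largest rises and falls among called genes without overlap, up to 5 called members per list with the lowest adjusted p, 14 reference genes, the 5 largest differences between chemicals in each direction, and the 5 called genes whose probe sets disagreed most. Genes outside this rule were chosen after their values were seen. The method was tested on simulated data. Figures were drawn with matplotlib 3.10.9 and tables made with pandas 2.3.3 (Python 3.11.15).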

Additional observations from a re-analysis of the deposited data

Results flagged for a closer look

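Genes are listed here because the change with benzofuran differed from the change with another chemical of the run in a limma test of the difference itself. Vehicle, route, dose and chemical cannot be told apart in these tests, and all values are differences on the log2 scale, benzofuran effect minus the other.

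Against 1,5-naphthalenediamine the difference was 3.89 for Csad, 3.71 for Nucb2, 3.04 for Hspb1, 3.03 for Dnase2a and 2.09 for Pmaip1. Csad, Nucb2, Dnase2a and Pmaip1 rose with benzofuran and had log2 changes of -1.08, -1.02, -1.33 and -1.01 with 1,5-naphthalenediamine. The call was lost in 19 of 21 other settings for Pmaip1, 11 of 22 for Dnase2a, 10 of 22 for Csad and Nucb2 and 0 of 22 for Hspb1.

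Against pentachloronitrobenzene the difference was 6.01 for Cyp4a12a, 3.38 for Cyp2d9, 3.31 for Ly6d, 3.27 for Nat8 and 3.25 for Hspb1. It was -6.92 for Cyp3a16, -3.31 for Ifit1, -3.27 for Birc5, -2.86 for Cyp3a44 and -2.80 for Usp18. Ifit1 and Usp18, both interferon-induced, had log2 changes of 2.41 and 1.90 with pentachloronitrobenzene and of -0.90 each with benzofuran, where neither passed. The call was lost in 16 of 22 other settings for Cyp3a16, 17 of 21 for Birc5, 12 of 22 for Ly6d, 11 of 22 for Nat8 and Cyp3a44, and in 0 or 1 of 22 for the rest.

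Against N-(1-naphthyl)ethylenediamine dihydrochloride the difference was 5.62 for Derl3, 5.21 for Cbr3, 4.85 for Cyp4a12a, 4.50 for Csad and 4.18 for Hspb1. It was -4.42 for Per3, -3.48 for Prom1, -3.34 for Birc5, -3.14 for Hao2 and -2.26 for Ier3. The call was lost in 16 of 22 other settings for Prom1, 14 of 22 for Per3, 13 of 21 for Birc5, 10 of 22 for Hao2 and Ier3, 4 of 22 for Derl3, and 0 or 1 of 22 for the rest. The Birc5 differences rest on corn oil arrays at a mean of 172, beside 9.56 in the chow arrays.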

How the results depend on the processing

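No paired analysis was possible because replicate numbers only follow the order of the samples. For benzofuran against corn oil the count of 596 became 51 with values as deposited, where 1 array of the run stays unscaled, 81 with the 2 groups alone, 249 with the RNA integrity number as a covariate, 1041 with both control groups pooled and 1629 with arrays centred on their medians, an alternative chosen after seeing the data. It was 270 to 453 when each array was left out. The lowest counts came without corn oil replicate 2 (270) and replicate 3 (287). The cause of the other shifts was not tested. The difference from 1,5-naphthalenediamine (6 genes) became 13 as deposited, 45 without dim genes, 15 with the higher pseudocount, 65 with a trended robust eBayes, 3 with the groups alone, 3 with the covariate and 2 to 6 without single arrays. That from pentachloronitrobenzene (83) became, in the same order, 5, 194, 106, 213, 40, 23 and 34 to 52. That from N-(1-naphthyl)ethylenediamine dihydrochloride (126) became 21, 368, 205, 403, 43, 3 and 46 to 152, and 80 with all probe sets. With median centring the share of higher calls went from 41.3% to 89.7% for benzofuran, from 45.8% to 56.7% for the difference from pentachloronitrobenzene and from 56.3% to 77.9% for that from N-(1-naphthyl)ethylenediamine dihydrochloride, and with quantile normalisation it was 51.2% for benzofuran. Corn oil against chow gave 1 as deposited, 1 without dim genes, 3 with the higher pseudocount, 1 with the trended fit and 0 to 1 without single arrays. Small changes turned sign for Cyp3a11 (0.043 with quantile normalisation, 0.257 with median centring), Alb (0.022 and 0.182) and Cyp2e1 (0.144 with median centring). Of 2747 alternatives for single genes 2004 kept side and direction, 737 lost the call, 1 gained it and 5 turned sign.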

Other observations

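Of 27 p53 targets 3 rose and 1 fell, 14.8% called beside 3.28% of all genes. None of these calls held without each array: Rrm2b was lost without any of the 6 arrays, Apaf1 without any other than corn oil replicate 3, Trp53inp1 without any other than corn oil replicate 1, and Pmaip1 without corn oil replicate 1 or 2 or benzofuran replicate 3. Pmaip1, a pro-apoptotic protein, gave 41.0, 40.2 and 68.9 against 8.66, 14.6 and 19.6, close to the floor, and Cdkn1a, the standard p53 target, gave 413, 609.6 and 831 against 365, 137 and 89.8 with chow arrays at 462, 1295 and 759 and did not pass (limma adjusted p = 0.163). Cyp7a1, the rate-limiting enzyme of bile acid synthesis, gave 13169, 5111 and 3797 against 1452, 988 and 1281, groups that did not overlap, with a log2 change of 2.36 ± 0.65 that missed the threshold (adjusted p = 0.0564). Alas1, the first enzyme of haem synthesis, gave 11269, 15672 and 8504 against 4271, 3059 and 4002 (adjusted p = 0.0559). Of 33 respiratory chain genes, 12 urea cycle and periportal genes, 16 gluconeogenesis and fasting genes and 26 hepatocyte transcription factors, none was called in the main limma fit.

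Clock genes varied widely between arrays of a group. Of 19 measured 2 fell, Per3 (73.6, 17.1 and 76.8 against 157, 545 and 758) and Cry2. The Per3 call was lost with quantile normalisation and without any array other than corn oil replicate 1, and the Cry2 call under median centring and without corn oil replicate 2 or 3 or benzofuran replicate 1 or 3. Both were lost with corn oil and chow controls pooled. Dbp, a clock output gene, gave 204, 149.7 and 94.0 with benzofuran and 341, 4559 and 5576 with corn oil, where replicate 1 stood far below the other two, and it did not pass (adjusted p = 0.123). Nfil3 gave 2571, 1890.2 and 2553 against 2458, 647 and 517, where corn oil replicate 1 lay within the benzofuran values. The time of day of collection was not used here.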
